A study of Mus musculus with 8 samples.

Results

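The 33 genes of glucose uptake, glycolysis, lactate handling and glycogen turnover were examined in hearts of mice whose Ssbp1 gene was disrupted in heart and skeletal muscle. Ssbp1 encodes mtSSB, the mitochondrial single-stranded DNA binding protein. The members were chosen by gene name: 4 transporters, 2 hexokinases with glucose phosphate isomerase, 3 phosphofructokinase-1 subunits, 4 PFKFB enzymes, 10 enzymes from aldolase to pyruvate kinase, 2 lactate dehydrogenase subunits, 2 glycerol phosphate dehydrogenases and 5 glycogen enzymes. They are 33 of the 55348 nuclear genes in the deposited table. RNA was taken from heart tissue (the labels call it total hearts) at about 5 weeks of age, from mice on an inbred C57BL/6N background, and sequenced as TruSeq libraries. The knockout hearts (2 mice, labelled Ssbp1-/-) carried loxP-flanked Ssbp1, targeted at exon 3, and a Cre recombinase under the Ckmm promoter, which is active in heart and skeletal muscle. The control hearts (2 mice, labelled Ssbp1+/+) were loxP-flanked animals without Cre (L/L) in the study's nomenclature, although the labels describe a cross to Cre mice for every sample and leave the Cre status of each mouse unstated. The remaining 2 mice have a title and a genotype label that contradict each other, and neither entered a comparison. Heart tissue also holds endothelial cells, fibroblasts and blood cells outside the reach of this Cre, and in bulk RNA fewer cells of a type and less RNA per cell cannot be told apart.

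Glycolysis splits glucose into pyruvate in the cytosol and yields ATP without oxygen or a respiratory chain, and glycogen is the glucose store that feeds it. The adult heart burns mainly fatty acids, takes up glucose through GLUT4, and uses muscle isoforms of many glycolytic enzymes, whereas the fetal heart relies more on glucose and on ubiquitous isoforms. Loss of mtDNA lowers respiratory chain capacity, and glycolytic genes are therefore often measured in hearts with mitochondrial disease.

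The values are normalized counts, that is, the reads assigned to a gene divided by a size factor of the library. The libraries held 25558246 and 25682093 reads in knockout replicates 1 and 2, against 24067849 and 19716305 in control replicates 1 and 2. Reads of mitochondrially encoded genes took 58.0% and 56.2% of them in the knockouts, against 62.7% and 66.7% in the controls, and the reads of nuclear genes numbered between 6568812 and 11259234. One read was worth between 0.765 and 1.35 normalized counts. Ssbp1 itself (chromosome 6, 40471352 to 40484700, GRCm38) had 170 and 163 normalized counts in the knockouts, against 177 and 216 in the controls. Both knockouts lay below both controls, but the log2 fold change of -0.23 ± 0.16 (SE) had an adjusted p of 0.890 in limma. Reads of the undeleted exons and of cells that Cre does not reach can count toward this value, and their share was not tested. The value therefore tests the genotype labels only weakly.

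Heart muscle markers were abundant in all 4 libraries. The 10 cardiomyocyte markers summed to 647224 and 622970 normalized counts in the knockouts, against 654114 and 624911 in the controls. Among them, the atrial light chain Myl7 was at 1.53 in knockout replicate 2 and at 0 in the other 3 libraries. Nppa, the atrial natriuretic peptide gene, had 449 and 1102 in the knockouts, against 561 and 1021 in the controls. The share of atrial tissue in these hearts was not tested. None of the tested cardiomyocyte, fibroblast, endothelial, smooth muscle and pericyte, macrophage and leukocyte, erythroid, adipocyte or skeletal muscle markers was called by limma, edgeR or DESeq2; at an unadjusted limma p under 0.05 were Cd68, Lyz2 and Acta1, all with lower values in the knockouts. The fibroblast markers summed to 11638 and 14628 in the knockouts, against 16148 and 14916 in the controls. The adipocyte list was near 0 apart from Pparg, and of the skeletal muscle list only Ckm, Acta1 and Tnni2, which the heart also expresses, passed the filter on low values.

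Liver-type transcripts differed widely between single hearts. The 10 hepatocyte markers, a list made after their values were seen, summed to 3150 and 737 in the knockouts, against 5575 and 20.2 in the controls, so that the highest and the lowest library were both controls. Liver-type genes of glucose metabolism went with them. Fbp1, the liver fructose bisphosphatase of gluconeogenesis, had 26.4 and 4.59 normalized counts in the knockouts, against 38.1 and 4.04 in the controls. Pck1, the cytosolic PEP carboxykinase, had 97.2 and 16.1 in the knockouts, against 133 and 8.08 in the controls. Neither Fbp1 nor Pck1 is a member, and the knockout and control values overlapped for each. The 8 erythroid markers summed to 14991 and 42076 in the knockouts, against 19043 and 14512 in the controls, and Bpgm, the red cell bisphosphoglycerate mutase, had 185 and 396 in the knockouts, against 247 and 225 in the controls. The part of liver-type or blood RNA in the members' values was not tested.

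**Figure D1:**
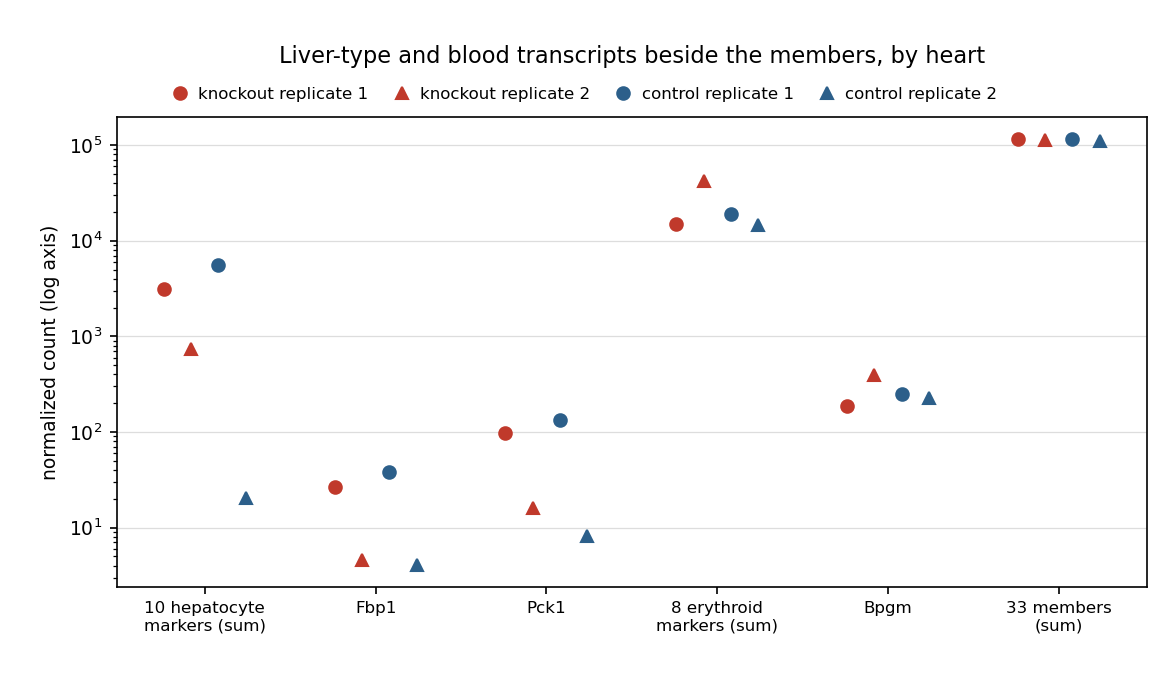
Normalized counts on a log axis of the summed hepatocyte markers, the liver-type genes Fbp1 and Pck1, the summed erythroid markers, Bpgm and the summed 33 members, with 1 point per heart (red knockout, blue control, circle replicate 1, triangle replicate 2). Liver-type transcripts range from 20.2 to 5575 across the hearts and the erythroid sum is highest in knockout replicate 2, whereas the member sum stays between 111095 and 116936.

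No member passed the test for a difference between knockout and control hearts. The test was limma on log2(normalized count + 1), fitted to all 14522 genes with at least 10 normalized counts in at least 2 of the 4 libraries, with Benjamini-Hochberg adjustment and a threshold of 0.05. It took in 31 members, and called 0 of 31 against 17 of all genes (0.117%). The smallest adjusted p of a member was 0.753. The lowest unadjusted p-values, under 0.05, belonged to Gbe1, Aldoa, Pgam1 and Gpi1, all with higher values in the knockouts. These were 4 of 31 members, where 3.08% of all genes had such a p with higher knockout values. No member had such a p with lower values, against 3.02% of all genes. On the whole reads recovered from the table, edgeR called 0 of 31 members (0.131% of all genes) with 3 at an unadjusted p under 0.05, and DESeq2 called 0 of 31 (0.513% of the genes given an adjusted p) with 1 at an unadjusted p under 0.05. Without knockout replicate 1 the limma count at an unadjusted p under 0.05 was 1 member, and without knockout replicate 2 it was 0.

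The differences were small as well as uncalled. The log2 fold changes ran between -0.54 (Pfkfb1) and 0.32 (Gbe1), 17 were positive and 14 negative, and their median was 0.0086 (-0.018 without control replicate 2), beside 0.0024 over all genes tested. The 95% interval of the fold change lay within 1.5-fold in either direction for 26 of 31 members, against 40.8% of all genes. The members are mostly abundant transcripts, and their median standard error was 0.093, beside 0.20 over all genes. Among the 19 members with a mean of at least 1000 normalized counts, the largest absolute log2 fold change was 0.24 (Pfkfb2) and the intervals stayed between 0.761-fold and 1.41-fold. The 5 members whose interval crossed 1.5-fold were Slc2a1, Pfkfb1, Pfkfb3, Pfkfb4 and Gpd1.

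**Figure D2:**
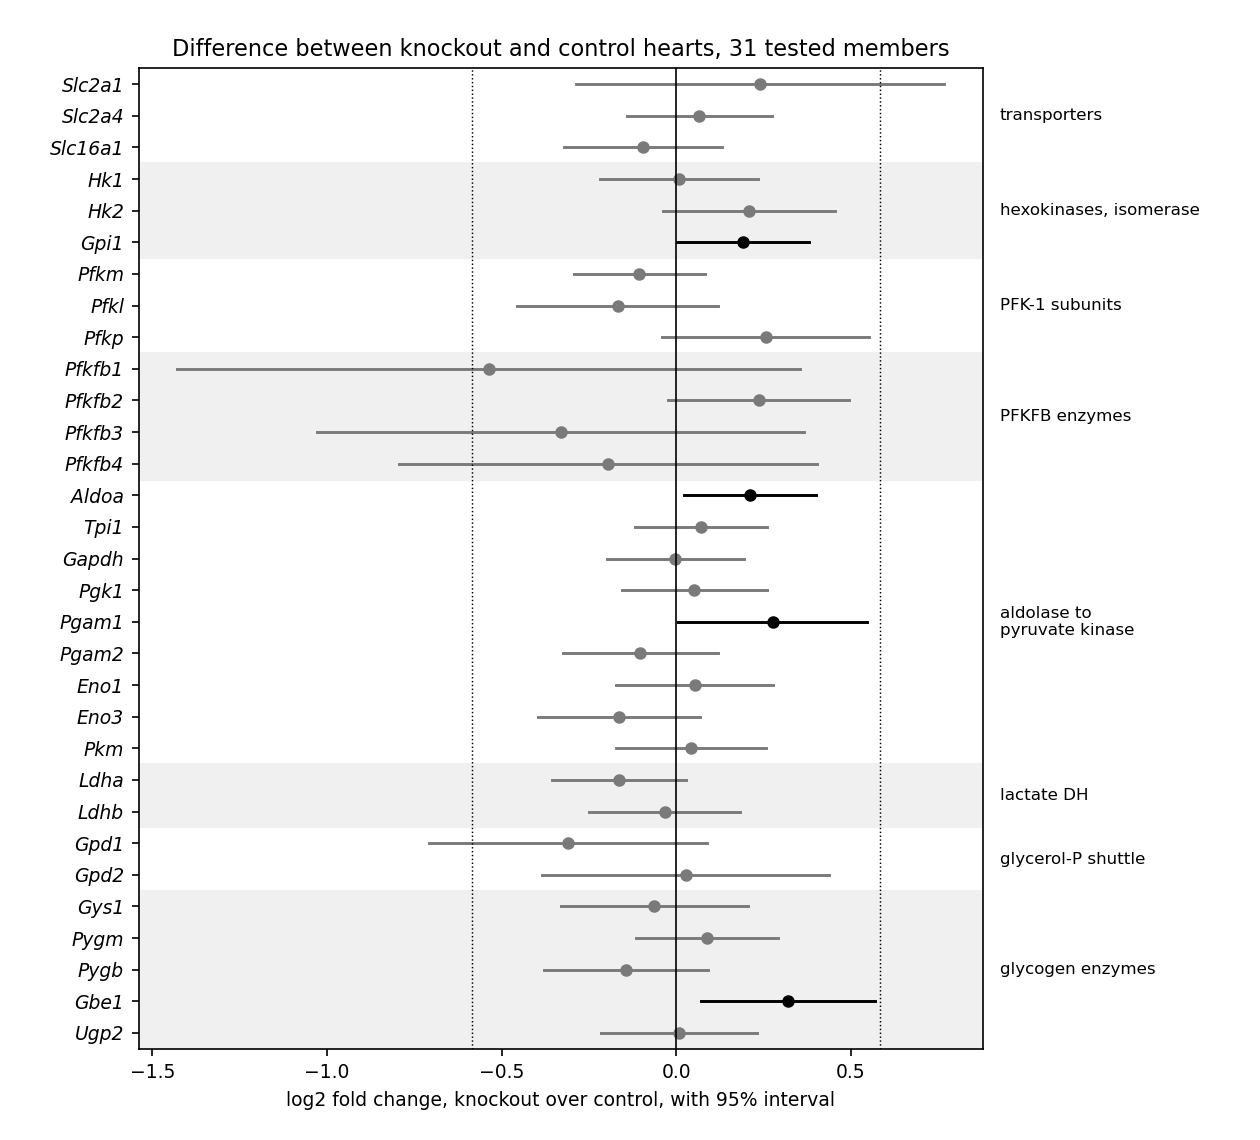
Log2 fold change of knockout over control hearts (points) with its 95% interval (lines) for the 31 tested members, grouped by role. Black marks an unadjusted p under 0.05 and dotted lines mark 1.5-fold; 26 intervals lie between the dotted lines, and none of the 31 members has an adjusted p under 0.05.

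In single libraries, both knockouts lay above both controls for 9 of 31 members, against 18.1% of all genes, and below both for 7 of 31, against 17.5% of all genes. The first group was Hk2, Gpi1, Pfkp, Pfkfb2, Aldoa, Tpi1, Pgam1, Eno1 and Gbe1. The second was Pfkm, Pfkl, Pgam2, Eno3, Ldha, Gpd1 and Pygb. The remaining 15 tested members overlapped between the groups. All members together summed to 116936 and 112634 normalized counts in the knockouts, against 114941 and 111095 in the controls, or 1.32% and 1.31% of the nuclear total against 1.31% and 1.255%. The summed level thus overlapped between the groups.

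Glucose enters the cardiomyocyte mainly through GLUT4, encoded by Slc2a4, and basal uptake uses GLUT1, encoded by Slc2a1. Slc2a4 had 2672 and 2623 normalized counts in the knockouts, against 2629 and 2430 in the controls, with a log2 fold change of 0.07 ± 0.09 (SE). Slc2a1 had 141 and 106 in the knockouts, against 113 and 94.3 in the controls. Its interval, 0.820-fold to 1.70-fold, had the highest upper limit of any tested member, and neither transporter separated the groups. Slc16a1 encodes MCT1, which carries lactate and pyruvate across the plasma membrane, and it had 2648 and 2911 in the knockouts, against 3084 and 2849 in the controls. Slc16a3, the lactate exporter MCT4 of glycolytic fibres, was almost silent at 7.41 and 6.89 in the knockouts, against 22.5 and 6.74 in the controls, and was not tested.

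The hexokinases trap glucose as glucose 6-phosphate, and Hk2 is the insulin-responsive isoform of muscle. Hk2 had 3809 and 3815 normalized counts in the knockouts, against 3573 and 3045 in the controls, a log2 fold change of 0.21 ± 0.10 (SE) with an adjusted limma p of 0.815. The 2 knockouts were close to each other and above both controls, whereas the controls differed from each other by more than control replicate 1 differed from the knockouts. Hk1, the ubiquitous isoform, had 1741 and 1832 in the knockouts, against 1858 and 1696 in the controls, and the groups overlapped. Gpi1, glucose phosphate isomerase, makes fructose 6-phosphate and had 3592 and 3511 in the knockouts, against 3091 and 3126 in the controls. Both knockouts were above both controls, by 1.14-fold (95% interval 1.002 to 1.30), with an unadjusted p of 0.048 and an adjusted limma p of 0.806.

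Phosphofructokinase-1 catalyses the committed step of glycolysis, and its muscle subunit Pfkm dominates in heart. Pfkm had 6168 and 6027 normalized counts in the knockouts, against 6404 and 6723 in the controls. The liver subunit Pfkl had 869 and 861 in the knockouts, against 888 and 1063 in the controls, and the platelet subunit Pfkp had 896 and 1057 in the knockouts, against 774 and 858 in the controls. Pfkm and Pfkl were thus lower and Pfkp higher in both knockouts, with log2 fold changes of -0.11, -0.17 and 0.26 and no adjusted limma p under 0.815. The PFKFB enzymes set the level of fructose 2,6-bisphosphate, the activator of phosphofructokinase-1. Pfkfb2, the main cardiac form, had 1071 and 1157 in the knockouts, against 892 and 999.6 in the controls, a log2 fold change of 0.24 ± 0.11 (SE) with an adjusted limma p of 0.809. Pfkfb1, Pfkfb3 and Pfkfb4 lay between 33.7 and 65.9 in the knockouts and between 40.1 and 88.9 in the controls, and each overlapped between the groups. Control replicate 2 was the highest library for all 3 of these low genes, and it had the fewest reads.

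The enzymes from aldolase to pyruvate kinase hold the most abundant members. Aldoa, the muscle and ubiquitous aldolase that splits fructose 1,6-bisphosphate, had 17745 and 16827 normalized counts in the knockouts, against 14606 and 15248 in the controls. Both knockouts were above both controls, by 1.16-fold (95% interval 1.01 to 1.32), with an unadjusted p of 0.034 and an adjusted limma p of 0.798. A second row of the table also carries the name Aldoa and had between 0.977 and 3.30 counts; the values given are those of the abundant row (chromosome 7, 126795234 to 126800751). Gapdh, glyceraldehyde phosphate dehydrogenase, had 16226 and 15985 in the knockouts, against 16793 and 15488 in the controls. Its log2 fold change was -0.0020 with a 95% interval between 0.872-fold and 1.14-fold, close to 0, and its sign turned with the scaling between libraries. Tpi1, triose phosphate isomerase, had 4158 and 4003 in the knockouts, against 3865 and 3895 in the controls, and Pgk1, the first ATP-yielding kinase, had 3085 and 2974 in the knockouts, against 3034 and 2813 in the controls. Aldoc, the brain aldolase, had 1 read in knockout replicate 2 and none in the other 3 libraries, and was not tested.

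Phosphoglycerate mutase and enolase each have a ubiquitous and a muscle gene. Pgam1, the ubiquitous mutase (chromosome 19, 41911923 to 41918660), had 541 and 549 normalized counts in the knockouts, against 432 and 469 in the controls. Both knockouts were above both controls, by 1.21-fold (95% interval 1.004 to 1.46), with an unadjusted p of 0.046 and an adjusted limma p of 0.806. Pgam2, the muscle mutase, had 3162 and 2815 in the knockouts, against 3219 and 3186 in the controls. Eno1, the ubiquitous enolase, had 958 and 969 in the knockouts, against 923 and 935 in the controls. Eno3, the muscle enolase, had 8483 and 8203 in the knockouts, against 10042 and 8680 in the controls. In both families the ubiquitous gene was higher and the muscle gene lower in both knockouts, and no gene of either family was called. Pkm, the muscle pyruvate kinase gene that ends the pathway, had 9446 and 9066 in the knockouts, against 9508 and 8486 in the controls, and overlapped between the groups.

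Lactate dehydrogenase interconverts pyruvate and lactate, with the A subunit prevalent in glycolytic muscle and the B subunit in heart. Ldha had 3049 and 3132 normalized counts in the knockouts, against 3515 and 3408 in the controls. Both knockouts were below both controls, by a log2 fold change of -0.16 ± 0.08 (SE) with an adjusted limma p of 0.815, and the 95% interval ended at 1.02-fold on the upper side. Ldhb had 6779 and 6014 in the knockouts, against 6506 and 6556 in the controls, and the knockouts spanned both controls. Gpd1 and Gpd2 form the glycerol phosphate shuttle, which passes cytosolic reducing equivalents to the respiratory chain. Gpd1, the cytosolic enzyme, had 479 and 506 in the knockouts, against 712 and 524 in the controls, a log2 fold change of -0.31 ± 0.16 (SE) with an adjusted limma p of 0.833. Gpd2, the mitochondrial enzyme, had 158 and 195 in the knockouts, against 178 and 167 in the controls, and the groups overlapped.

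Glycogen is built from UDP-glucose by glycogen synthase and the branching enzyme and is broken down by phosphorylase. Gbe1, the branching enzyme (chromosome 16, 70313949 to 70569716), had 630 and 647 normalized counts in the knockouts, against 512 and 511 in the controls. It had the largest positive fold change and the smallest p among the members, 1.25-fold (95% interval 1.05 to 1.48), with an unadjusted p of 0.020 and an adjusted limma p of 0.753. Gys1, the muscle glycogen synthase, had 1018 and 897 in the knockouts, against 957 and 1041 in the controls. Ugp2, which makes UDP-glucose, had 2052 and 2283 in the knockouts, against 2163 and 2142 in the controls, and both genes overlapped between the groups. Pygm, the muscle phosphorylase, whose human gene is mutated in McArdle disease, had 8801 and 8022 in the knockouts, against 8036 and 7775 in the controls, and overlapped at the boundary. Pygb, the brain phosphorylase that heart also expresses, had 6383 and 5503 in the knockouts, against 6455 and 6650 in the controls, and both knockouts were below both controls. The 5 glycogen genes summed to 18885 and 17352 in the knockouts, against 18123 and 18119 in the controls.

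**Figure D3:**
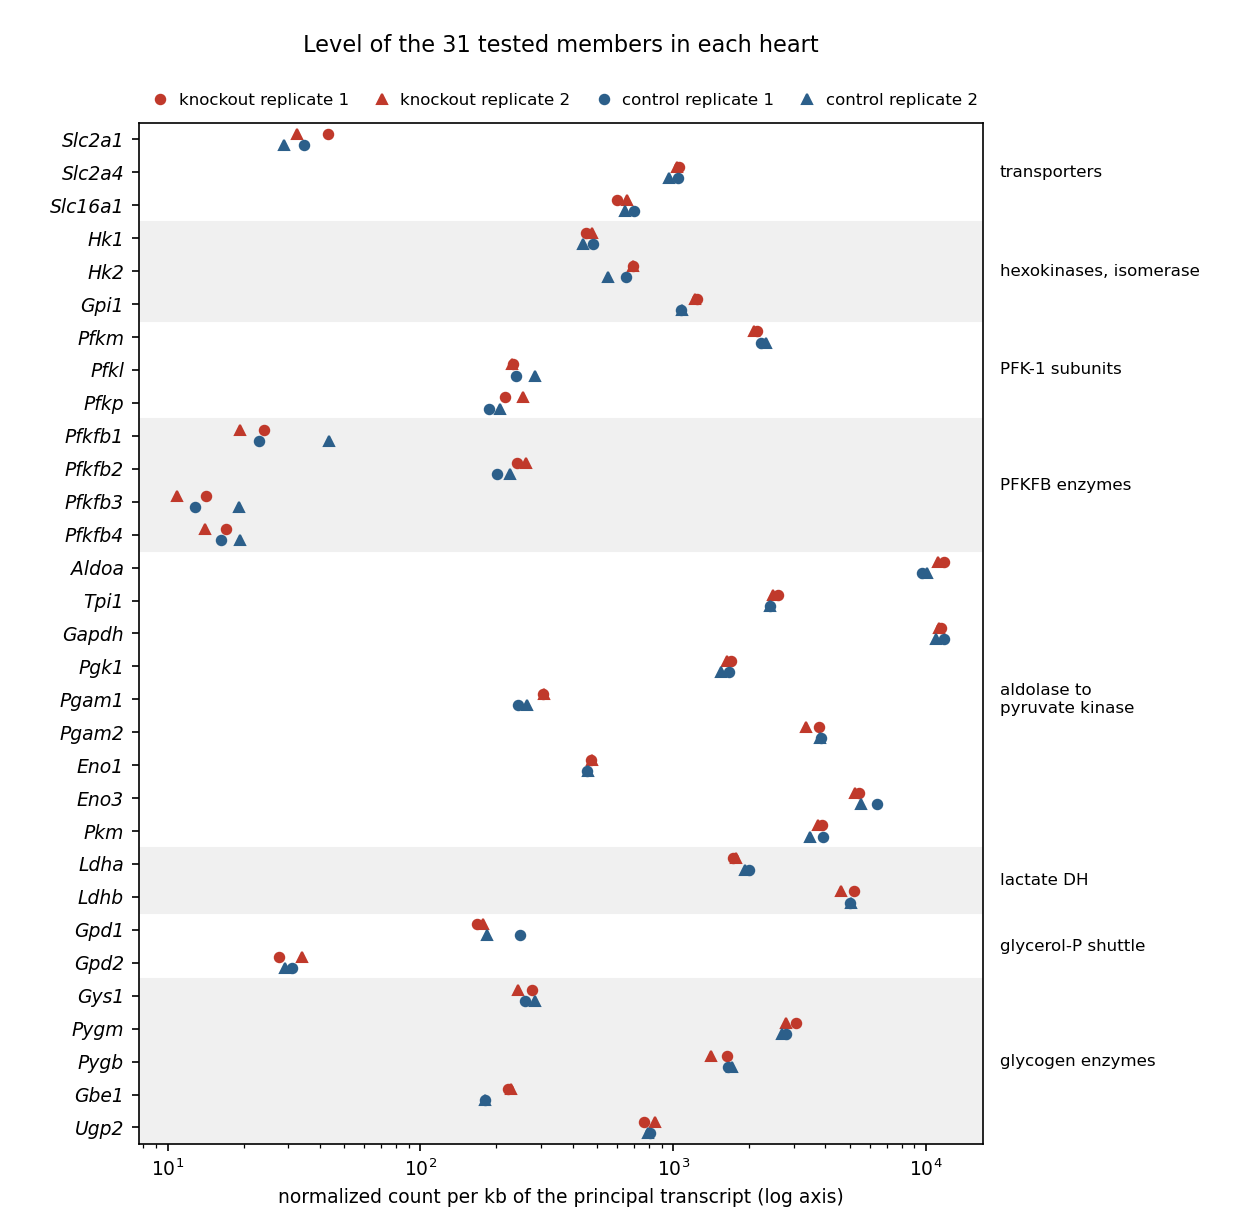
Level of the 31 tested members as normalized counts per kb of the principal transcript, on a log axis, with 1 point per heart (red knockout, drawn above blue control; circle replicate 1, triangle replicate 2). The levels span from a knockout mean of 12.6 per kb (Pfkfb3) to 11440 per kb (Aldoa), and for every member the 2 groups lie close together on that scale.

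Levels can be compared between genes only per length, and normalized counts were therefore divided by the length of each principal transcript. On that scale Aldoa had 11440 per kb and Gapdh 11342 in the knockouts, against 9879 and 11366 in the controls. The muscle enolase Eno3 came next in both groups with 5335 per kb in the knockouts and 5985 in the controls, followed by Ldhb with 4905 in the knockouts and 5008 in the controls. Among the tested members Pfkfb3 was lowest, with 12.6 per kb in the knockouts and 16.03 in the controls. Within the pairs, the GLUT4 gene and the muscle hexokinase, phosphofructokinase, mutase, enolase and phosphorylase genes exceeded their partners in both groups, as did Ldhb and Slc16a1.

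Isoform balance was measured within each library, which removes the scaling between libraries, as the share of 1 gene in the summed normalized counts per kb of a pair. Pgam1 made up 7.49% and 8.45% of the mutase pair in the knockouts, against 5.97% and 6.51% in the controls. Eno1 made up 8.02% and 8.36% of the enolase pair in the knockouts, against 6.62% and 7.67% in the controls. Pfkp made up 9.17% and 10.9% of its pair with Pfkm in the knockouts, against 7.75% and 8.14% in the controls. For these 3 pairs, both knockouts lay above both controls. Hk1 made up 39.5% and 40.7% of the hexokinase pair in the knockouts, against 42.7% and 44.4% in the controls. Pygb made up 34.8% and 33.5% of the phosphorylase pair in the knockouts, against 37.1% and 38.6% in the controls, and for these pairs both knockouts lay below both controls, with a larger share of the muscle gene. The shares of Slc2a1 against Slc2a4, Pfkl against Pfkm, Ldha against Ldhb and Slc16a3 against Slc16a1 overlapped between the groups.

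Of 10 pairs, 9 could be tested and 5 did not overlap, 3 with higher and 2 with lower knockout ratios, where 18.1% of single genes lay higher and 17.5% lower in both knockouts. The exact two-sided permutation test of 2 against 2 libraries on the log2 ratio cannot give a p below 0.333, which the 5 pairs reached, with an adjusted p of 0.600 over the 9 pairs. The count was 8 without control replicate 1 and likewise without control replicate 2, where a lone control separates from 2 knockouts more readily by construction. The largest difference among the 5 was that of Pgam1 against Pgam2, whose ratio was 1.30-fold higher in the knockouts (log2 difference 0.38). The other 4 ratios were 1.28-fold (Pfkp against Pfkm), 1.16-fold (Eno1 against Eno3), 0.870-fold (Hk1 against Hk2) and 0.851-fold (Pygb against Pygm) in the knockouts relative to the controls.

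**Figure D4:**
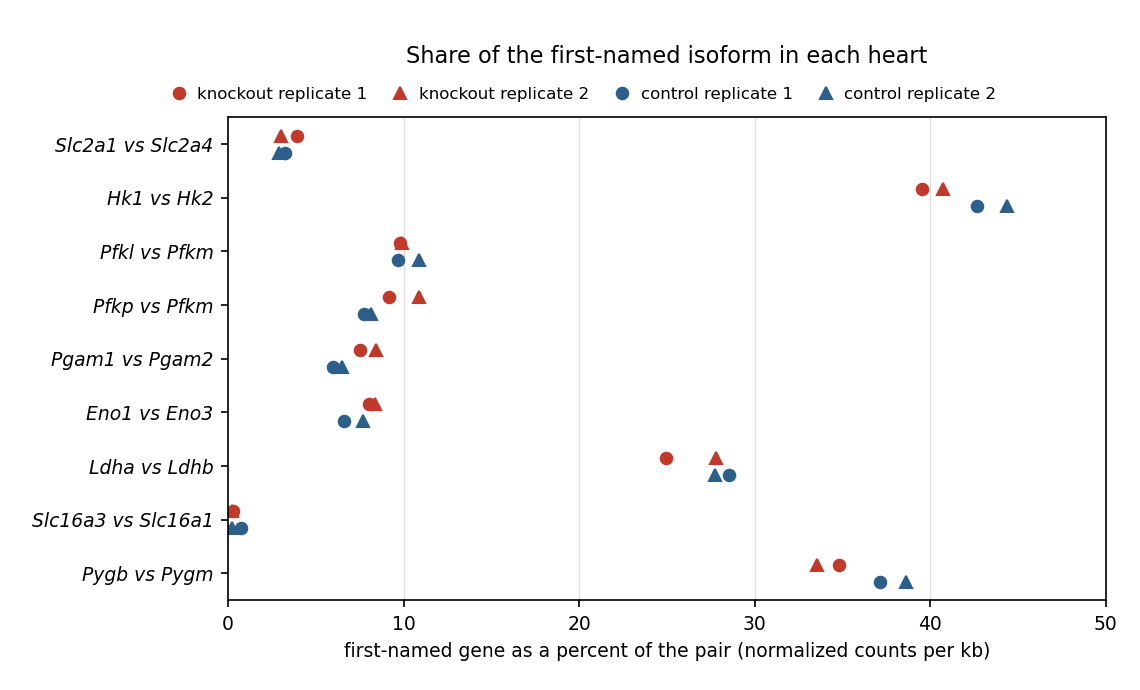
Share of the first-named gene in the summed normalized counts per kb of each of 9 isoform pairs, in percent, with 1 point per heart (red knockout, drawn above blue control; circle replicate 1, triangle replicate 2). All shares are under 50%; the groups do not overlap for the Hk1, Pfkp, Pgam1, Eno1 and Pygb pairs, and Ldha stays between 24.9% and 28.5% of its pair.

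Promoter sequence was examined because glycolytic genes are classical targets of the hypoxia-inducible factors and of Myc. Promoter windows of 300 bases around the start (RefSeq, GRCm38.p6) were matched for 31 of 33 members, in 50 windows; Slc2a4 and Gpd1 were not matched. Both strands were searched for ACGTG and GCGTG, the core letters of the hypoxia response element, for CACGTG, the E-box bound by Myc, which holds ACGTG within it, and for TTGCATCA, the composite site of C/EBP and ATF proteins. ACGTG was found in 46% of the member windows, against 19.6% of the 32851 windows of all genes. GCGTG was found in 52% against 32.4%, CACGTG in 10% against 7.15%, and TTGCATCA in 0% against 0.895%. These shares count windows, and a gene can have several. Counted per gene, ACGTG was found in 61.3% of the matched members against 21.8% of all genes, and GCGTG in 64.5% against 35.2%. CACGTG was found in 16.1% against 8.09%, and TTGCATCA in 0% against 1.03%. The member windows were also richer in G and C, with a median of 59.7% against 52.7%, and in CpG, with a median of 16.5 against 7 per window. No allowance was made for base composition, and a match of so few letters only describes the window. The 250 bases before the start are shown for 4 windows, 3 of members with an unadjusted limma p under 0.05 and that of Ldha. Ldha was picked by name, outside that rule. Capitals mark every match on either strand, and where a gene has several windows the one with most matches is shown.
Gbe1 (chr16:70313699-70313948, plus strand): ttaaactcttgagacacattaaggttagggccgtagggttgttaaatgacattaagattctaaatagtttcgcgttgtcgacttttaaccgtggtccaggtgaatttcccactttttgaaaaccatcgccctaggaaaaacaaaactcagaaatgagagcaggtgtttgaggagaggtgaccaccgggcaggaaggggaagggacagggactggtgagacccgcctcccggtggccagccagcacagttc
Aldoa (chr7:126799255-126799504, minus strand): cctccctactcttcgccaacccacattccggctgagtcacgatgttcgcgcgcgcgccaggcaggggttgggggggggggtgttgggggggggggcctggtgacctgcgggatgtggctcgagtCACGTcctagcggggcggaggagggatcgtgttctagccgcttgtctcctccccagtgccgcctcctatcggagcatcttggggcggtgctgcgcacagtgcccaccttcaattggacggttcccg
Pgam1 (chr19:41911621-41911870, plus strand): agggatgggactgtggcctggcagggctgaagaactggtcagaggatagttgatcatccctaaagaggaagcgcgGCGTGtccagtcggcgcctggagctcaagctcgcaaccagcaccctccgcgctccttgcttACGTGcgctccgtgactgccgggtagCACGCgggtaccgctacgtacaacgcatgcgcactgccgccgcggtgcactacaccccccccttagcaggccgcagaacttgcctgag
Ldha (chr7:46845554-46845803, plus strand): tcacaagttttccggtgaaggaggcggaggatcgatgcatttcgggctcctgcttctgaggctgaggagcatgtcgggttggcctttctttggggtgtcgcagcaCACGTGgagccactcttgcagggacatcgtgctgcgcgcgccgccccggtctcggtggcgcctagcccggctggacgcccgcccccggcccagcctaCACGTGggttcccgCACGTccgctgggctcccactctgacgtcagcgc
Gbe1 holds none of the 4 motifs in these letters, and neither does the corresponding window of Gpi1. Aldoa holds 1 match and Pgam1 holds 3. Ldha holds 2 copies of CACGTG and a further ACGTG on the opposite strand. CACGTG was also found in windows of Slc16a1, Pfkm, Pfkfb2 and Pfkfb3. Whether any motif bears on the members' values was not tested.

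Genes next to the members in glucose metabolism were read from 6 lists of 104 genes, of which 103 are in the table and 92 were tested. None was called by limma, edgeR or DESeq2. At an unadjusted limma p under 0.05 there were 3 with higher values in the knockouts and 5 with lower values, among backgrounds of 3.08% and 3.02%, and the median log2 fold change of the 92 was -0.02.

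The regulators held the smallest p of any of these lists. Myc, a transcription factor whose targets include glycolytic genes, had 42.8 and 68.1 normalized counts in the knockouts, against 19.5 and 16.2 in the controls, a log2 fold change of 1.55 ± 0.36 (SE) with an adjusted limma p of 0.577. Both knockouts had more than the higher control, as did 18.1% of all genes tested, and the counts are low. The mice with contradictory labels had 90.1 (titled control) and 43.4 (titled knockout), each above both controls and above knockout replicate 1. Epas1, which encodes HIF-2alpha, had 2868 and 2553 in the knockouts, against 3127 and 3384 in the controls, and Prkag2, a regulatory subunit of AMP-activated kinase, had 171 and 168 in the knockouts, against 219 and 214 in the controls. Of 19 tested regulators 10 had positive and 9 negative log2 fold changes.

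Hypoxia response genes outside glycolysis were split, with 7 positive and 8 negative log2 fold changes among 15 tested. Egln3, the oxygen-sensing prolyl hydroxylase induced by hypoxia-inducible factors, had 525 and 467 normalized counts in the knockouts, against 800.4 and 633 in the controls, a log2 fold change of -0.52 ± 0.15 (SE) with an adjusted limma p of 0.680. Bhlhe40, a hypoxia-inducible repressor, had 171 and 301 in the knockouts, against 352 and 350.3 in the controls. P4ha1, a collagen prolyl hydroxylase, had 478 and 373 in the knockouts, against 511 and 543 in the controls. All 3 had lower values in both knockouts than in both controls, as did 17.5% of all genes tested. They were named for having the smallest p of the list, which favours genes that separate the groups. In the mice with contradictory labels, titled control and titled knockout, Egln3 had 444 and 445, below both knockouts. Bhlhe40 had 375 and 252 in these mice, and P4ha1 had 378 and 332, below knockout replicate 1.

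Among 20 further glycogen genes tested, 6 had positive and 14 negative log2 fold changes. Phkg1, the muscle catalytic subunit of phosphorylase kinase, had 101 and 171 normalized counts in the knockouts, against 249 and 255 in the controls, a log2 fold change of -0.94 ± 0.26 (SE) with an adjusted limma p of 0.671. Stbd1, which tethers glycogen to membranes, had 77.4 and 82.6 in the knockouts, against 56.7 and 49.8 in the controls. Gyg, the glycogenin that primes new glycogen particles, had 994 and 933 in the knockouts, against 756 and 877 in the controls. The groups did not overlap for any of the 3, which were named for the smallest p of the list, a choice that favours such genes. Over all genes tested, 18.1% lay higher and 17.5% lower in both knockouts.

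In the pentose phosphate, polyol and hexosamine branches 7 of 15 tested genes had positive log2 fold changes. Gfpt2, which starts the hexosamine branch, had 88.1 and 115 normalized counts in the knockouts, against 173 and 150 in the controls, a log2 fold change of -0.67 ± 0.20 (SE) with an adjusted limma p of 0.715. G6pdx, the entry enzyme of the pentose phosphate branch, had 56.8 and 68.9 in the knockouts, against 52.8 and 41.8 in the controls, and Tkt, its transketolase, had 327 and 313 in the knockouts, against 302 and 230 in the controls. Among 13 further isoforms and side reactions tested, 7 were positive. Pck2, the mitochondrial PEP carboxykinase, had 141 and 174 in the knockouts, against 114 and 104 in the controls, a log2 fold change of 0.52 ± 0.19 (SE) with an adjusted limma p of 0.792. Fbp2, the muscle fructose bisphosphatase, had 149 and 118 in the knockouts, against 178 and 154 in the controls, and Hk3 had 7.41 and 18.4 in the knockouts, against 26.4 and 17.5 in the controls.

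The further transport genes numbered 10 tested, with 3 positive and 7 negative log2 fold changes and none at an unadjusted p under 0.05. Slc16a7, which encodes the pyruvate and lactate transporter MCT2, had 94.7 and 106 normalized counts in the knockouts, against 146 and 123 in the controls. Tbc1d4, the AS160 protein that holds GLUT4 inside the cell, had 1237 and 1118 in the knockouts, against 1095 and 1495 in the controls, and Emb, a chaperone of lactate transporters, had 8.24 and 11.5 in the knockouts, against 11.7 and 2.69 in the controls. The last 2 genes overlapped between the groups, and their direction turned when control replicate 2 was left out.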

How the data were processed

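RNA of mouse heart tissue was sequenced by the authors as TruSeq libraries, aligned with STAR 2.7.3a to GRCm38.p6 with the GENCODE vM24 annotation and quantified with Salmon 1.1.0. The deposited values are a normalized signal: gene counts that the authors divided by DESeq2 1.26.0 size factors. In each library, 100% of the values were whole multiples of 1 read (tolerance 0.001), and the whole reads so recovered were used for edgeR and DESeq2. The authors' own comparison table (fold changes and p-values over all mice) was not used. Gene positions and transcript lengths are from GENCODE vM21.

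The 2 knockout and 2 control libraries were compared with limma 3.58.1 (R 4.3.3) on log2(normalized count + 1), with a mean-variance trend, over genes with at least 10 normalized counts in at least 2 libraries. Intervals are 95% intervals of that fit. Its p-values rest on the spread between these mice, moderated toward the mean-variance trend over all genes tested. Alternatives were edgeR 4.0.16, DESeq2 1.42.0, pseudocounts of 0.5 and 5, other filters, 2 other scalings, limma without a trend or with robust variances, a replicate block, and each library left out. The fits were run on simulated counts with planted changes larger than that of any tested member. That run does not show how well differences as small as those of the members are detected. The members and lists were chosen with earlier results of these data known. All members are named, and of each further list the up to 3 genes with the smallest p, apart from Fbp1, Pck1 and Bpgm, named after their values were seen. Salmon splits reads between near-identical copies. The 14 rows of member pseudogenes and same-named copies held at most 8.24 normalized counts.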

Additional observations from a re-analysis of the deposited data

How the results depend on the processing

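With 2 mice per group every value rests on 4 libraries, and members under about 100 normalized counts have wide intervals. No member gained a call under any of 15 alternatives, whose smallest adjusted p for a member was 0.366; 450 of 464 recomputed member values kept their direction and 14, of 8 members with small differences, turned. No gene of the further lists was called under these alternatives either.

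The count of members at an unadjusted p under 0.05, 4 as reported, was 1 with DESeq2, 0 with no mean-variance trend, and between 0 and 5 with one library left out. Taking that unadjusted p as the rule of the call gives 4 members in place of 0. The replicate numbers in the titles are shared by 2 pairs, too few to establish pairing, and the deviations of same-numbered libraries correlated at 0.31 across genes. With the replicate block the same count was 1, with 0 members called, and 6 isoform ratios moved the same way in both pairs. Ratios that do not overlap between the groups move the same way under any pairing, so the number of such ratios does not test pairing. With one library left out, the median log2 fold change ran between -0.018 and 0.056, the number of isoform pairs that did not overlap between 5 and 8 (a lone library separates more readily by construction), and the log2 ratio of the summed members between -0.0049 and 0.049 (below 0 without knockout replicate 1 or without control replicate 2). Gapdh, at -0.0020, became 0.013 with TMM factors of nuclear reads, 0.0026 with edgeR and 0.012 with equal totals of nuclear genes. With one library left out, the log2 fold changes that turned ran between -0.057 and 0.074 (Hk1), -0.060 and 0.056 (Gapdh), -0.0021 and 0.11 (Pgk1), -0.039 and 0.13 (Pkm), -0.12 and 0.054 (Ldhb), -0.12 and 0.18 (Gpd2), -0.15 and 0.029 (Gys1), -0.069 and 0.085 (Ugp2), -0.25 and 0.86 (Emb) and -0.35 and 0.10 (Tbc1d4). The log2 ratio differences that turned ran between -0.013 and 0.37 (Slc2a1 against Slc2a4), -1.502 and 0.12 (Slc16a3 against Slc16a1) and -0.16 and 0.033 (Pfkl against Pfkm). The cause of these turns was not tested. The sum of the members' reads as a share of all nuclear reads, an alternative added after seeing the data, gave a log2 ratio of 0.036, beside 0.022 as reported.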

Other observations

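In 1 mouse the title gives the control and the genotype field the knockout (mouse A), and in another the reverse (mouse B), and no group was given to either. The 33 members summed to 117037 normalized counts in mouse A and 115542 in mouse B. Gbe1 had 557 in mouse A and 580.2 in mouse B, and Aldoa had 18173 in mouse A and 16367 in mouse B. Pgam1 had 455 in mouse A and 380 in mouse B, beside a range between 432 and 549 in the compared hearts. Gpi1 had 3824 in mouse A and 3496 in mouse B, and Ldha had 3011 in mouse A and 3359 in mouse B. The 10 hepatocyte markers summed to 1534 in mouse A and 1238 in mouse B, and the 8 erythroid markers to 19292 in mouse A and 11347 in mouse B. Slc16a3, with its highest value in the compared hearts at 22.5, had 28.0 in mouse A and 23.0 in mouse B. The ratio of Hk1 to Hk2 normalized counts was 0.377 in mouse A and 0.461 in mouse B, both below the 0.480 of knockout replicate 2. The other ratios without overlap, in mouse A and mouse B, were 0.133 and 0.122 (Pfkp against Pfkm) and 0.169 and 0.123 (Pgam1 against Pgam2). They were 0.128 and 0.103 for Eno1 against Eno3, and 0.791 and 0.785 for Pygb against Pygm.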
